A study of Caenorhabditis elegans with 2 samples.

Results

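The genes described here are the numbered ceh genes of Caenorhabditis elegans, which encode homeodomain transcription factors, without the engrailed homolog gene ceh-16, the Hox gene ceh-13 and the Hox cofactor genes ceh-20, ceh-40 and ceh-60. The rule took every protein-coding gene of the Ensembl annotation whose symbol is ceh- plus a number, less those 5, and found 58 genes of 19973 on the 6 nuclear chromosomes. ChIP-seq against eGFP-tagged BLMP-1 was done in whole L1 larvae of mixed sex and unstated age, of strain OP109, which carries unc-119(ed3) III and the insertion wgIs109 with the tagged blmp-1. There was 1 group of 2 biological replicates, and no control library or untagged larvae were analysed here. Both replicates come from 1 transgenic strain, and all cell types of a larva were mixed, so a peak does not tell in which cells the site was occupied. The values are the authors' peak lists on build ce11, with 8751 optimal peaks that passed their threshold on reproducibility between replicates (IDR). Longer lists that also hold background had 30000 entries for the pooled replicates, 27310 for replicate 1 and 30000 for replicate 2. A peak is given below by its summit, by the authors' signal value, which has no stated scale, and by its rank by signal, where rank 1 is the strongest. Read depth is unknown, so intervals on shares are exact 95% Clopper-Pearson intervals over genes or peaks and cover counting error only.

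Homeodomain proteins bind DNA through a conserved helical domain and set cell identity in many animals. In C. elegans many ceh genes act in the nervous system, the pharynx and muscle, each often in a few cells, and several are used as markers of single neuron classes. BLMP-1 is a zinc-finger protein of the Blimp-1 (PRDM1) family that is known for its part in the epidermis, in developmental timing and in the migration of the distal tip cells of the gonad.

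A gene was called bound when an optimal summit fell in a window reaching 1500 bp upstream and 500 bp downstream of any of its transcript starts. Only ceh-38, ceh-58, ceh-79 and ceh-88 were bound, 4 of 58 members (6.9%, 1.91 to 16.7%), against 5476 of all 19973 protein-coding genes (27.4%). Counting also the gene body and up to 5000 bp upstream of its outermost 5′ end, 16 of 58 members held a summit (27.6%, 16.7 to 40.9%), against 8510 of all genes (42.6%). The other 42 members held none. In 12 of the 16, summits lay only in the gene body or farther upstream than the window, against 3034 of the 8510 over all genes.

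**Figure D1:**
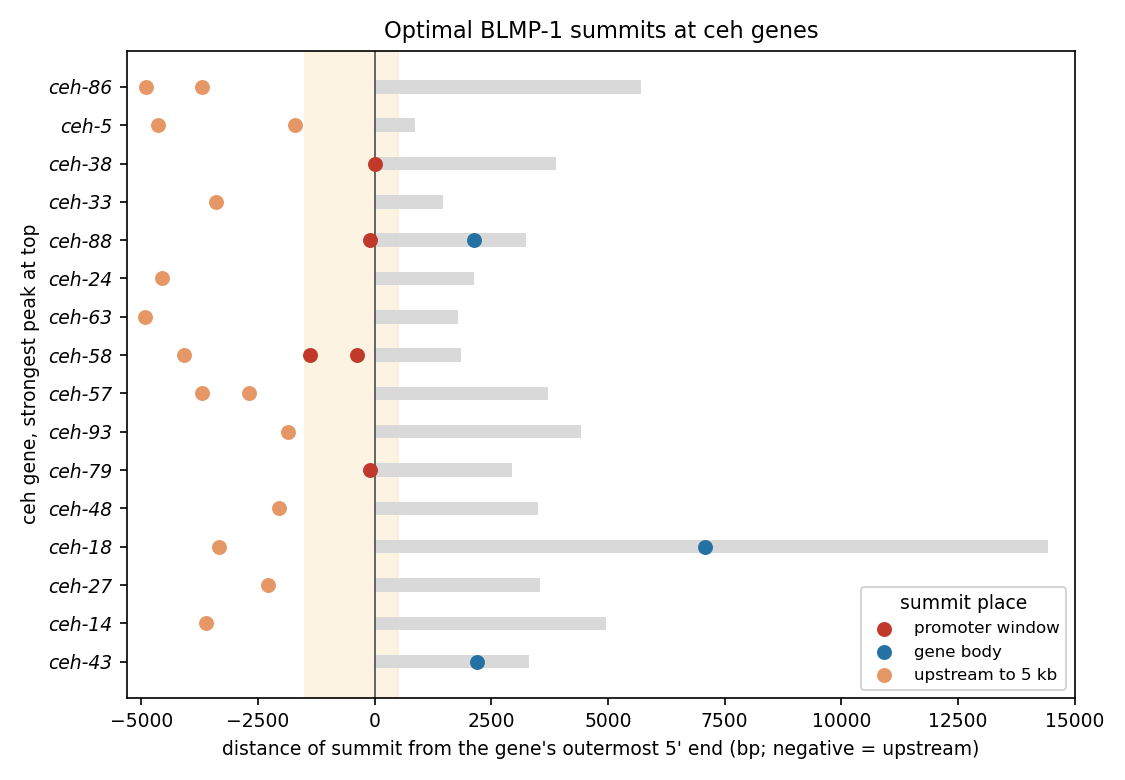
Position of every optimal summit at the 16 ceh genes that had one, as the distance in bp from the gene's outermost 5′ end, with the gene body as a grey bar and the promoter window shaded. Summits of ceh-38, ceh-58, ceh-79 and ceh-88 fall in the window, while the other upstream summits lie between 1698 and 4914 bp upstream.

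The strongest promoter peak belonged to ceh-38, a gene of the ONECUT family, whose members act together in pan-neuronal gene expression. Its summit (WBGene00000459, chromosome II, 6951480 to 6951600) lay in the gene's 5′ UTR, 20 bp downstream of the nearest start, with a signal of 362.3 and rank 1232 in the optimal list. The site ranked 1666 in replicate 1 and 1102 in replicate 2, so it was among the stronger 4375 peaks of each of the 3 lists. The gene had 11 distinct starts, the most of any member, and the same summit also lay in the window of the neighbouring gene malt-1, which encodes a paracaspase. It remained bound when only its outermost start was used.

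The gene ceh-58 (WBGene00007417) had 2 promoter peaks and another one 4072 bp upstream (rank 5441), the most summits of any member. The stronger one (chromosome II, 10370822 to 10371157, intergenic, 1393 bp upstream) had a signal of 150.5 and rank 4265, with ranks 5086 and 4147 in replicates 1 and 2. The other one (10369814 to 10370149, intergenic, 385 bp upstream) had a signal of 114.6 and rank 5630, with ranks 5978 and 6069. Its neighbour ceh-57 starts downstream of it on the same strand, 444 bp past its 3′ end, and reached the same 2 peaks at 3694 and 2686 bp upstream. Both were nearer to the start of ceh-58, so ceh-57 had no peak for which its own start was the nearest.

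The gene ceh-88 (WBGene00008195, chromosome IV) had a promoter peak at 17328925 to 17329260, intergenic and 95 bp upstream, with a signal of 149.6 and rank 4297, and ranks 5842 and 3738 in replicates 1 and 2. A second and stronger peak at 17331159 to 17331494 (signal 202.6, rank 3026) lay in its 3′ UTR, 200 bp upstream of the nearest start, that of C49C3.6, and in the windows of C49C3.6 and C49C3.7. No other gene's window held the promoter peak. The gene ceh-79 (WBGene00007749, chromosome V, 13301565 to 13301900, intergenic, 100 bp upstream) had a promoter peak with a signal of 118.9 and rank 5445. Of the members' promoter peaks, only the weaker one of ceh-58 ranked below it. At the ceh-79 peak, replicate 2 had a summit at rank 5694. Replicate 1 had none within 100 bp of it, but one 212 bp upstream of the start ranked 5199. It was not counted as bound with the stronger 4375 peaks or with peaks matched in both replicates, while ceh-38, ceh-58 and ceh-88 were bound in all 11 settings tried.

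The sequences at these promoter summits show what BLMP-1 peaks at the bound members look like. Each is the 151 bases centred on the summit, 5′ to 3′ on the gene's strand, taken from the RefSeq copy of WBcel235, and all are intergenic. None holds AAAGTGAAA, the recognition motif of the Blimp-1 family, counted on both strands, even with 1 mismatch, so no base is in capitals. The ceh-38 summit is left out because it lies in a UTR.
ceh-58, 385 bp upstream, chrII:10369907-10370057, minus strand: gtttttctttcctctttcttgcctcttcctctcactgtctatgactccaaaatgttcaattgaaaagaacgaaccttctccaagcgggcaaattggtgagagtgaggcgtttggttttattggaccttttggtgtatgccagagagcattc
ceh-58, 1393 bp upstream, chrII:10370915-10371065, minus strand: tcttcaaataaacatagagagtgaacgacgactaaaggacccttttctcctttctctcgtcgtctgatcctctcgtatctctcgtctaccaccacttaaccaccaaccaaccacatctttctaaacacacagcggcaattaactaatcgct
ceh-88, 95 bp upstream, chrIV:17329018-17329168, plus strand: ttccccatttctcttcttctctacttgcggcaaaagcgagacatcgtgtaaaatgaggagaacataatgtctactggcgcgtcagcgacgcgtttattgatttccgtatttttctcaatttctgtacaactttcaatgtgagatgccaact
ceh-79, 100 bp upstream, chrV:13301658-13301808, plus strand: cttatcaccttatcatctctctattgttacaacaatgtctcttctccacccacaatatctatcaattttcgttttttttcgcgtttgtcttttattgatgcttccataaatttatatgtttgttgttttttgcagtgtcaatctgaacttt
These windows were 57.0%, 56.3%, 58.3% and 68.9% A and T in the order printed, against a median of 58.9% over all optimal summits.

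The strongest peaks near any member lay outside the promoter windows. The highest signal was that of ceh-86 (WBGene00018355), with an intergenic peak 3698 bp upstream on chromosome II (2435617 to 2435892, signal 768.0, rank 305) that ranked 454 and 262 in replicates 1 and 2. A second peak of ceh-86, 4893 bp upstream, had rank 2864. No protein-coding gene had a start nearer to either one. Next in signal came the peak of ceh-5, a gene of the Vax group, which lay 1698 bp upstream with a signal of 556.7 (chromosome I, 9725370 to 9725600, rank 579, and 462 and 702 in the replicates). This summit fell in the 3′ UTR of eat-16, an RGS protein gene, and just outside the window. A weaker peak 4630 bp upstream of ceh-5 (rank 5993) lay 177 bp upstream of the start of eat-16 itself and was matched in replicate 2 alone.

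Among the other upstream peaks, that of ceh-48, an ONECUT gene of the nervous system, lay 2038 bp upstream on chromosome IV (6809902 to 6810237, signal 113.5, rank 5679) and was nearest to ceh-48 itself. It ranked 5058 and 5836 in replicates 1 and 2. The POU gene ceh-18, known for a signal from the gonadal sheath that holds back oocyte maturation, had a peak 3323 bp upstream (rank 6133) and one in its own intron (rank 8080), 1989 bp downstream of its nearest start. The upstream one ranked 3856 in replicate 1 and 8780 in replicate 2, just below the 8751 strongest of that replicate, and the intronic one was matched in replicate 2 alone. The Distal-less homolog gene ceh-43, which acts in the anterior epidermis and in dopaminergic neurons, had an intronic peak 2195 bp downstream of its start (chromosome III, 4447580 to 4447915, signal 80.67, rank 7405). That site ranked 11548 in replicate 1 and 6503 in replicate 2.

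For 7 of the 16 members with a summit, every peak had another gene's start nearer to it. With each summit counted only for its nearest start, 9 members held one, against 16 in the main count. Over all protein-coding genes the counts were 4917 and 8510. The 7 members were ceh-57, described above, the sine oculis-type gene ceh-33, the NK-2 genes ceh-24 and ceh-27, the LIM gene ceh-14, ceh-63 and ceh-93. The peak of ceh-33 (rank 2275) lay in an intron of C10G8.8, 341 bp downstream of a start of that gene. That of ceh-24, a gene expressed in vulval muscle, lay 1448 bp upstream of swan-1 (rank 3149), and that of ceh-27 lay 100 bp upstream of F46F3.3 (rank 6796). The peak of ceh-63 (rank 4109) lay 415 bp upstream of tag-52, and that of ceh-93 (rank 5096) 84 bp upstream of R04A9.9. The peak of ceh-14, a gene of thermosensory and other neurons, lay 3615 bp upstream of it (chromosome X, 7536179 to 7536514, signal 83.42, rank 7258). Its summit was intergenic, 1445 bp downstream of the start of the collagen gene dpy-7 and outside that gene. In all, 8 of the 21 distinct peaks at members lay in the promoter window of a gene that is not a member. By a broader count, 5192 of all 8751 optimal peaks lay in the promoter window of some protein-coding gene. The lists do not tell which gene a shared peak serves.

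Of the 21 distinct peaks, 14 (66.7%) had a summit within 100 bp among the 8751 strongest of both replicates, against 6581 of all 8751 optimal peaks (75.2%). Another 6 were matched in replicate 2 alone, 1 in replicate 1 alone, and none in neither. Over all 8751 optimal peaks, 1444 were matched in replicate 2 alone, 638 in replicate 1 alone and 88 in neither. The 6 were those of ceh-79, ceh-27, ceh-14, ceh-43, the intron of ceh-18 and the farther one of ceh-5. Of the 5 promoter peaks, 4 were matched in both replicates (80%), against 3946 of 5192 optimal peaks in any promoter window (76%). The median rank of the 21 peaks was 5096 and their median signal 127, against 4376 and 147 for all optimal peaks, and 10 of the 21 belonged to the stronger 4375.

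**Figure D2:**
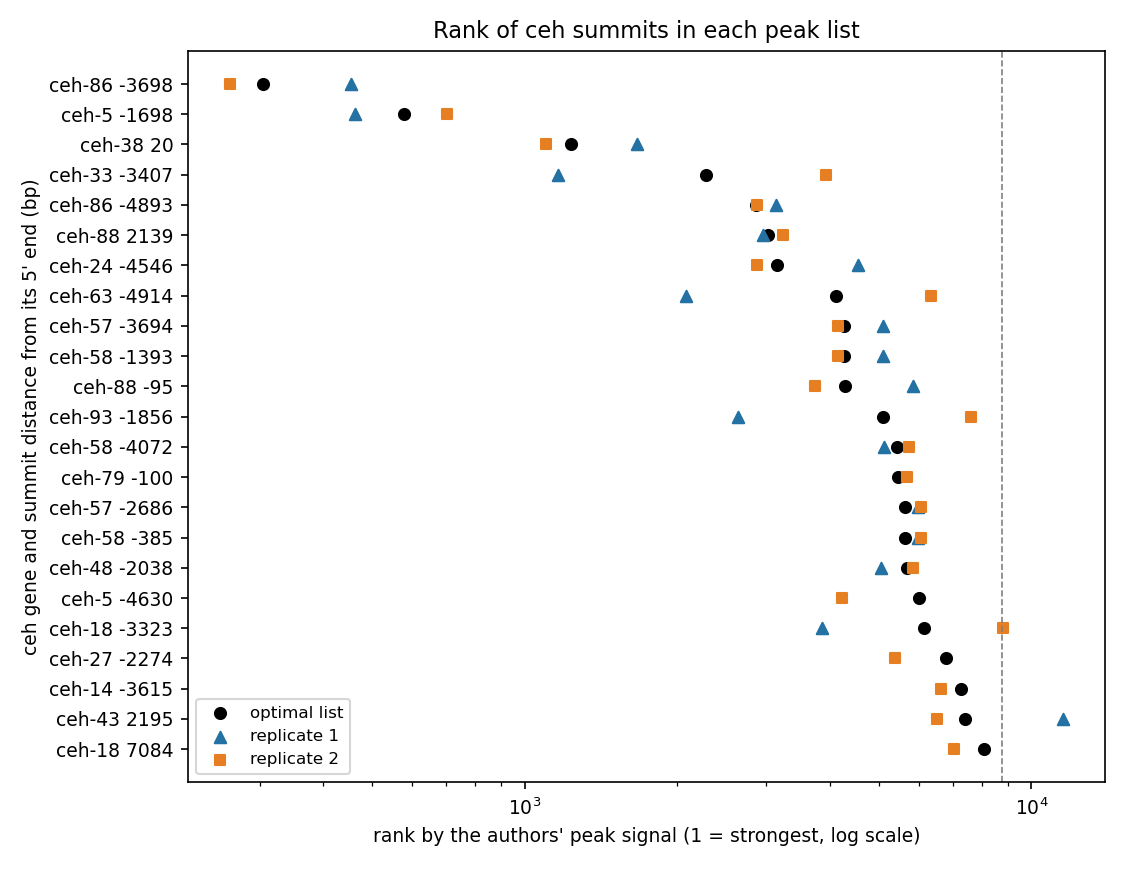
Rank by signal, on a log axis, of each summit at a ceh gene in the optimal list (black circles), in replicate 1 (blue triangles) and in replicate 2 (orange squares), with a dashed line at 8751. Summits shared by ceh-57 and ceh-58 appear under both, and a missing symbol means no summit within 100 bp in that replicate.

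The motif AAAGTGAAA with at most 1 mismatch lay within 75 bp of the summit in 7 of 21 member peaks (33.3%, 14.6 to 57.0%), against 2799 of 8751 optimal peaks (32%). Flanks of the same width 500 bp away held it in 6 of 42 cases (14.3%) at members and in 19.3% over all peaks. An exact match was found in 4 of the 21 (19%, 5.45 to 41.9%), those of ceh-86, ceh-5, ceh-93 and ceh-48, against 474 of all optimal peaks (5.42%). All 4 were matched among the strongest peaks of both replicates, and all lay upstream of the promoter window.

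The intergenic windows with an exact match are printed to show where the motif sits, with its letters in capitals. Each has 151 bases centred on the summit, 5′ to 3′ on the strand of the ceh gene, again from RefSeq WBcel235.
ceh-86, chrII:2435695-2435845, minus strand: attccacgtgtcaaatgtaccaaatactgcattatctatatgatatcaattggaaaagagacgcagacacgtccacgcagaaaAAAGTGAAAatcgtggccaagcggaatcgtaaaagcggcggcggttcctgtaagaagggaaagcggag
ceh-93, chrX:390578-390728, minus strand: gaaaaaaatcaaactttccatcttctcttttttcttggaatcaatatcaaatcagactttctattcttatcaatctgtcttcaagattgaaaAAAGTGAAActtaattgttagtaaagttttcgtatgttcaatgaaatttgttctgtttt
ceh-48, chrIV:6809995-6810145, plus strand: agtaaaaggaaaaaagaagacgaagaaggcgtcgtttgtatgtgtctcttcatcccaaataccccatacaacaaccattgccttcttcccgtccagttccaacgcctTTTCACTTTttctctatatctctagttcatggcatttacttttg
The match lay on the strand of the gene at ceh-86 and ceh-93 and on the opposite strand at ceh-48, with its centre 12, 21 and 36 bases to the right of the summit as printed, in the order ceh-86, ceh-93 and ceh-48. A match is a run of letters and was not tested as a binding site.

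The motif was about as frequent in the members' promoter windows as in those of all genes. In the 2001 bases from 1500 upstream to 500 downstream of the outermost start, 6 of 58 members had an exact AAAGTGAAA on either strand (10.3%, 3.89 to 21.2%), against 2536 of all genes (12.7%). These were ceh-18, ceh-24, ceh-28, ceh-62, ceh-86 and ceh-90, and 0 of the 6 were bound, against 834 of 2530 other genes with the motif (33%). A count of 0 among 6 genes leaves that share poorly fixed.

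By homeobox class, promoter binding was found in the CUT class and among genes not assigned to a class here. Over all protein-coding genes 27.4% were bound and 42.6% held a summit in the wider locus. The classes are small, and differences between them were not tested. The CUT genes counted 6 members, of which ceh-38 was bound, ceh-48 had an upstream peak, and ceh-21, ceh-39, ceh-41 and ceh-49 had none. The paired-like genes had no optimal summit at any of their 8 members, which are ceh-8, ceh-10, ceh-17, ceh-36, ceh-37, ceh-45, ceh-53 and ceh-54. They include ceh-10, which specifies the AIY interneuron, and the Otx-type genes ceh-36 and ceh-37 of chemosensory neurons. The NK-like and other ANTP genes had 0 of 18 bound and summits at 5, which were ceh-5, ceh-24, ceh-27, ceh-43 and ceh-63. None lay at ceh-22, which drives pharyngeal muscle genes, ceh-28 of the pharyngeal neuron M4, the motor neuron gene ceh-12, the BarH-type genes ceh-30 and ceh-31, or ceh-1, ceh-2, ceh-7, ceh-9, ceh-19, ceh-23, ceh-51 and ceh-62. Of the 3 sine oculis-type genes, ceh-33 had a peak while ceh-34, which acts in pharyngeal neurons, and ceh-32, which acts in head development, had none. Of the POU genes, ceh-18 had peaks and ceh-6, which is needed for the excretory canal cell, had none. The 20 unassigned genes had 3 bound and 6 with a summit, and ceh-74, ceh-75, ceh-76, ceh-81 to ceh-84, ceh-87, ceh-89 to ceh-92, ceh-99 and ceh-100 had none.

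The nearest summit was farther away for the members, as a median that was not tested. The distance from any start of a gene to the nearest optimal summit had a median of 8413 bp over the 58 members and of 4996 bp over the 19915 other genes, and it ran from 20 to 112423 bp among members. Nearest to the upstream edge of the window on its inner side was the summit of ceh-58 at 1393 bp, and the next ones inward were those at 385 bp of the same gene and at 100 bp of ceh-79. Just outside were ceh-5 at 1698 bp, ceh-93 at 1856 bp and ceh-48 at 2038 bp, while ceh-12 had a summit 1244 bp downstream of a start, past the end of the gene. Over 40000 bp from a summit lay 8 members (13.8%), against 6.8% of other genes. Of these, ceh-41, ceh-21 and ceh-39 are ONECUT neighbours on chromosome X, 103 and 1137 bp apart, at 112423, 108362 and 104926 bp from a summit. ONECUT protein CEH-39 is known as one of the X-chromosome signals of sex determination. The neighbours ceh-81, ceh-82 and ceh-83 on chromosome II lay at 89698, 87869 and 83568 bp, and ceh-84 and ceh-87 on the same chromosome at 58364 and 46026 bp. Neighbours lie side by side in the same stretch, so these members are not separate cases.

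**Figure D3:**
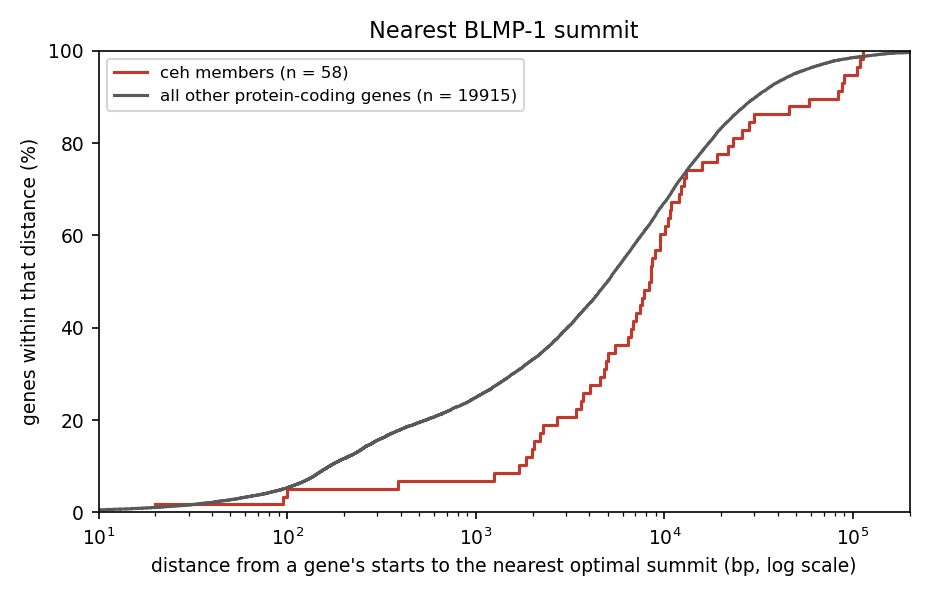
Cumulative share of genes against the distance in bp, on a log axis, from their transcript starts to the nearest optimal summit, for the 58 ceh genes (red) and the 19915 other protein-coding genes (grey). The medians are 8413 bp for the ceh genes and 4996 bp for the other genes.

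Gene structure is given beside these counts, and its part in them was not tested. Members had a median of 1 transcript start, as other genes did, and 24.1% of members had more than 1 start, against 26.3% of other genes. Their median distance upstream to the next protein-coding gene was 1760.5 bp, against 935 bp for other genes, and their median length 2727.5 bp against 2026 bp. Among genes with 1 start, 3 of 44 members were bound (6.82%), against 22.9% of other genes, and among genes with more, 1 of 14 (7.14%), against 40.4%. Among genes with at least 1500 bp of free upstream sequence, 2 of 32 members were bound (6.25%), against 26.8%, and among the rest 2 of 26 (7.69%), against 27.9%. On chromosome X none of 16 members was bound (upper exact limit 20.6%), where 783 of all 2731 genes of that chromosome were (28.7%). On chromosome II 2 of 13 members were bound (15.4%), against 27.2% of the other genes there, and on chromosome V 1 of 12 (8.33%), against 20.2%. On chromosome IV 1 of 4 was (25%), no lower than the 24.9% of other genes. On chromosome I the count was 0 of 8, against 34.2% of other genes, and on chromosome III 0 of 5, against 36.1%.

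Set beside related families, the members had the smallest share with a promoter summit of the lists compared. Of 33 other homeobox genes, namely ceh-16 and genes with symbols outside the ceh series such as unc-86 and mec-3, 5 were bound (15.2%, 5.11 to 31.9%), ceh-16 among them. Of 11 Hox genes and cofactors 5 were bound (45.5%, 16.7 to 76.6%), and of 266 nuclear hormone receptor genes other than nhr-23, nhr-25 and nhr-85, 99 were (37.2%, 31.4 to 43.3%). Over the wider locus the shares were 27.6% for the members, 45.5% for the other homeobox genes, 63.6% for the Hox genes and cofactors and 53% for the receptors. The interval of the members overlapped that of the other homeobox genes by either count. Over the wider locus it (16.7 to 40.9%) also overlapped that of the Hox genes and cofactors (30.8 to 89.1%). By promoter count, the upper limit of the members and the lower limit of the Hox genes and cofactors were both 16.7%. These differences between lists were not tested.

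**Figure D4:**
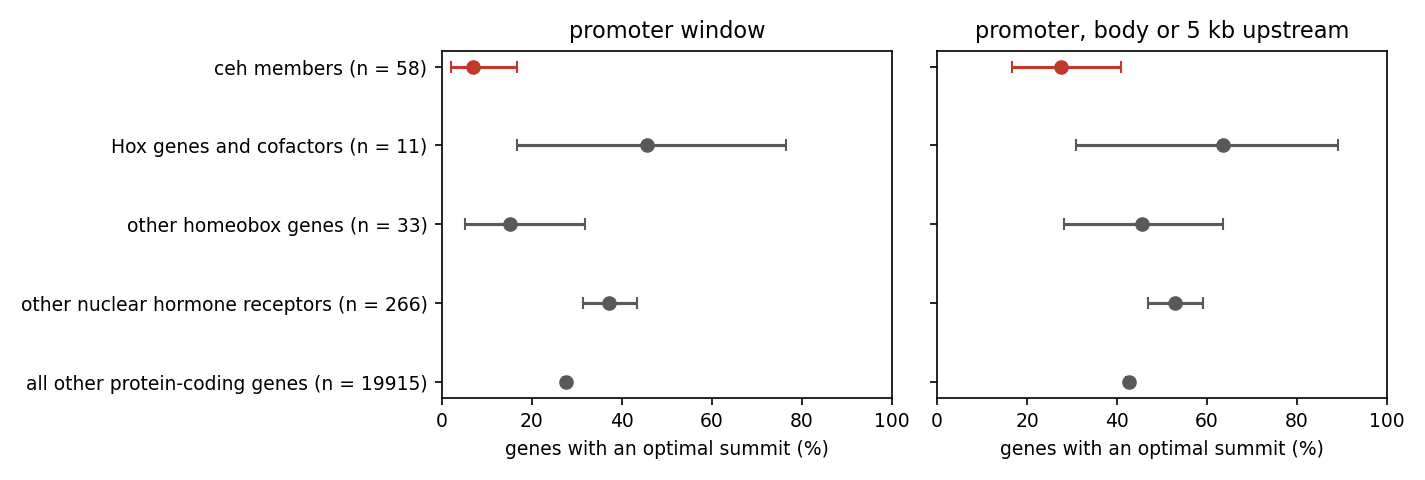
Share of genes with an optimal summit in the promoter window (left) and in the promoter window, gene body or 5000 bp upstream (right), with exact 95% intervals, for the ceh genes and 4 other lists. The ceh genes are at 6.9% and 27.6%, and all other protein-coding genes at 27.5% and 42.7%.

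With peaks below the reproducibility threshold included, members were close to other genes. In the list of 30000 pooled peaks, which by its description also holds background, 27 of 58 members had a promoter summit (46.6%), close to the 49.2% of all genes. Of these 27 members, 4 (14.8%, 4.19 to 33.7%) also had an optimal one, against 55.8% of the 9804 other genes with a pooled promoter summit. The best pooled promoter peak of a gene had a median rank of 12552 for members and 7438 for other genes.

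The 23 members with a weaker promoter peak only included several genes that had no optimal summit at all. The best was ceh-92, 883 bp upstream of its start, at rank 9224 and thus shortly past the threshold, with ranks 9017 and 9257 in replicates 1 and 2. It was followed by ceh-93 (9607, 137 bp upstream), ceh-89 (9855), ceh-100 (9863), ceh-91 (10319) and ceh-32 (10381, 257 bp upstream). Among the 8751 strongest peaks of a replicate, ceh-32 had a promoter summit in replicate 1 alone (rank 8691) and ceh-93 in replicate 2 alone (rank 7870). Others among the 23 were ceh-27, ceh-43, ceh-7, ceh-37, ceh-74, ceh-45, ceh-6, ceh-36 and ceh-8. The ranks of all 23 ran from 9224 to 29686. In 11 of the 23 (47.8%) both replicates' own lists held a summit within 100 bp, in 10 a single one did and in 2 neither. Among the 4332 other genes with a pooled peak only, 29.9% had both. The median best rank was 15519 for the 23 members and 17316 for those other genes, and the shares were not matched for rank. Such peaks failed the authors' threshold and were not counted as bound.

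**Figure D5:**
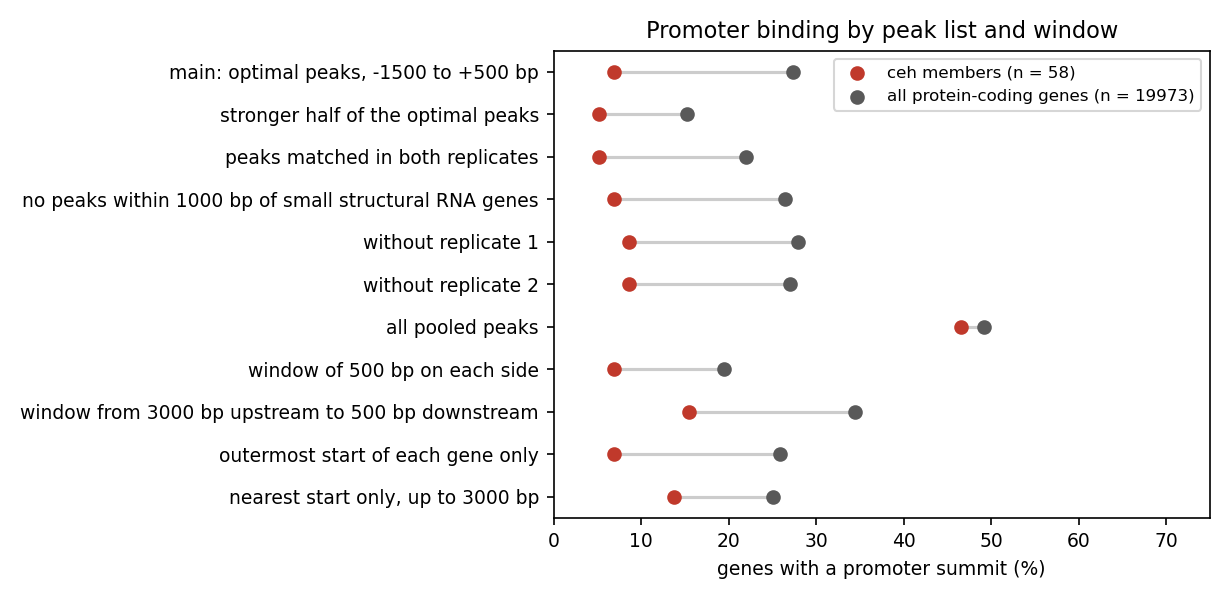
Share of genes with a promoter summit under the main rule and 10 alternatives, for the 58 ceh genes (red) and all 19973 protein-coding genes (grey). The ceh genes are at 5.17% to 15.5% in all of them except the list of all pooled peaks, where the shares are 46.6% and 49.2%.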

How the data were processed

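The authors deposited narrowPeak lists of the ChIP-seq signal: per the file listings, they are peaks and background as IDR input, for each replicate and for both pooled, and an optimal IDR-thresholded list. The sources used here do not give the aligner, the caller, the IDR threshold or their versions. Column 7, the authors' signal, served for ranks within a list only. The deposited −log10 q-value was not tested, as 38.9% of optimal peaks share its maximum. Depth is unknown. All work used ce11 (WBcel235) with gene models of Ensembl release 115 and the RefSeq genome of that assembly. Lists on ce10 were not used. Summits are 1-based. Members, classes, comparison lists and alternatives were chosen with earlier results of these data known, so no list was tested and no p-value is given. Named are all members with a summit within 5000 bp upstream or in the gene, those next to the window's edges, and most of those with weaker promoter peaks. Classes were assigned from textbook knowledge. The summit rules were checked on planted summits against a direct count. Tools were Python 3.11.15, numpy 2.4.6, pandas 2.3.3, scipy 1.17.1 and matplotlib 3.10.9.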

Additional observations from a re-analysis of the deposited data

How the results depend on the processing

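The count of bound members stayed between 3 and 5 with the stronger 4375 peaks, with peaks matched in both replicates, without 333 peaks near small structural RNA genes, in the window of 500 bp on each side and with the outermost start only. It was 5 without either replicate. It moved to 9 in the window from 3000 bp upstream, to 8 with the nearest start only and to 27 with all pooled peaks. The share of all genes moved to 15.3% with the stronger peaks, 22% with matched peaks, 26.4% without peaks near small RNA genes, 19.5% in the window of 500 bp, 34.5% in that of 3000 bp, 25.9% with the outermost start, 25.1% with the nearest start and 49.2% with all pooled peaks. It ran from 27% to 27.9% without either replicate.

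The count over the wider locus was 16 without replicate 1 (42.9% of all genes) and 16 without replicate 2 (42.6%). Without replicate 1 the members were the same, while without replicate 2 ceh-32 and ceh-34 took the places of ceh-14 and ceh-43. The count was 11 with matched peaks (35.8%) and 11 with upstream sequence ending at the next gene (29.9%). The wider count moved to 9 with the stronger peaks (26.3% of all genes), 9 with the nearest start only (24.6%) and 8 with 2000 bp upstream (31.9%). With all pooled peaks it moved to 41 (70.7% of members), close to the 67.1% of all genes, and this difference was not tested. The motif count moved to 4 with exact matches (19%, against 5.42% of all optimal peaks). It was 10 within 150 bp with at most 1 mismatch (47.6%), close to the 46.9% of all optimal peaks. The match in both replicates was 13, 16 and 16 of 21 within 50 bp, within 200 bp and against all deposited peaks. For these settings no share over all optimal peaks is given here. The grouping by starts and upstream length was chosen after the data were seen. No paired analysis was possible because there is 1 group. With 58 members, a count of 4 fixes the share only to within 1.91 to 16.7%.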

Other observations

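Among the homeobox genes outside the members, promoter summits were found at the Hox genes ceh-13, lin-39 and mab-5, at the cofactor genes ceh-20 and unc-62, at the engrailed homolog gene ceh-16, at the aristaless homolog gene alr-1, and at dve-1, irx-1 and hmbx-1. The numbers of starts differed, from 1 in ceh-13, mab-5, ceh-20, alr-1, irx-1 and hmbx-1 to 9 in dve-1 and 15 in unc-62. Genes of neuronal identity were found on both sides. Summits in the gene body or up to 5000 bp upstream, but not in the window, lay at unc-30, ttx-1, lin-11 and zag-1, and likewise at tab-1, vab-3, vab-15, lim-7, zfh-2 and pros-1. None lay at unc-86, mec-3, ttx-3, unc-4 and unc-42, nor at unc-39, lim-4, lim-6, dsc-1, cog-1, nsy-7, mls-2, pha-2, pax-3, eyg-1, duxl-1, pal-1 and vab-7. Of the Hox genes and cofactors without a promoter summit, nob-1 and php-3 had one in the wider locus, and egl-5, ceh-40, ceh-60 and psa-3 had none.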
